A study of Mus musculus with 3 samples.

Results

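Gata3, Tbx21, Rora, Foxp3, Bcl6, Il2ra, Ikzf2, Il10 and Il17a, the 9 genes described here, were taken by symbol from the 32285 genes of the count tables. They are regulators that mark T helper lineages, a receptor and a pair of cytokines, and all 9 were found. Their RNA was measured by droplet single-cell sequencing of mouse lung in 3 libraries, whose treatment labels are Control, Model and PD00, all from mice aged 3 months. The series title gives ovalbumin as the inducing agent and names PD00 as a peptidomimetic. The labels call the tissue of all 3 libraries healthy. They give neither the strain nor the number of animals per library, and do not say whether the PD00 mice also received ovalbumin. With 1 library per treatment, differences could not be set against the spread between animals. They are given without a test, and the 95% intervals reflect counting error alone.

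CD4 T helper cells take on different programs, each led by a transcription factor. GATA3 drives the type 2 program with IL-4, IL-5 and IL-13, T-bet (Tbx21) the type 1 program with interferon gamma, and the ROR factors, ROR-alpha (Rora) among them, the IL-17 program. FOXP3 defines regulatory T cells, which restrain immune responses, and BCL6 defines follicular helper cells, which help B cells. In the lung these programs are not exclusive to CD4 T cells: group 2 innate lymphoid cells also use GATA3 and ROR-alpha, natural killer cells use T-bet, and gamma-delta T cells are a known source of IL-17A.

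After filtering, 9368 Control, 11285 Model and 9373 PD00 cells were kept, holding 77245146, 79690635 and 76914274 UMIs (tags that mark single captured RNA molecules). Between 27 and 40 cell barcodes were shared by any pair of libraries. T cells were defined as cells with at least 2 UMIs of the CD3 genes Cd3d, Cd3e and Cd3g together. They numbered 1832, 3188 and 2519 (19.6%, 28.2% and 26.9% of kept cells), with medians of 4355, 4635.5 and 4354 UMIs. A UMI of the receptor gene Trac was found in 60.2%, 59.3% and 59.4% of them. CD3-negative innate lymphoid cells had no CD3 UMI and carried natural killer or innate lymphoid genes, and numbered 386, 272 and 243. Cells with exactly 1 CD3 UMI (456, 1169 and 735) were in neither group. In the T cells, at least 2 UMIs of the 5 myeloid genes Csf1r, Cd68, Csf3r, Ccr3 and Siglecf were found in 5.46%, 12.8% and 7.19%, and of the 4 structural genes Col1a2, Col3a1, Pecam1 and Epcam in 7.91%, 8.78% and 7.74%. The summed level of the myeloid genes was 87.5, 211 and 141 CPM (the UMIs of a gene over all UMIs of the summed cells, scaled by 1e+06), and none of the genes on these lists was at 0. The macrophage gene Lyz2 had UMIs in 77.8%, 59.5% and 60.5% of T cells. The part of such cells and such RNA in the results was not tested, except where a value without such cells is given.

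The promoters of Il17a and Foxp3 are shown because, of the members with an entry, these are the ones whose windows hold a motif of the ROR factors. ROR factors bind a half-site, AGGTCA, which reads TGACCT on the other strand. It was searched on both strands in the 250 bases before each start that RefSeq (GRCm38.p6) lists for a gene. It was found for 2 of the 7 members with an entry, Il17a and Foxp3, and for 15.8% of all 27025 genes with an entry. A GATA motif, AGATAA on either strand, was found for 1 of the 7, Foxp3, and for 11.4% of all genes. The Il17a window, chr1:20730655-20730904 on the + strand, holds 1 match, which starts 120 bases before the gene's start. The downstream window of the 2 that are listed for Foxp3, chrX:7580233-7580482 on the + strand, holds 2. Both Foxp3 windows, the Gata3 window and 1 of the Bcl6 windows lie inside the gene spans given below. A match describes the letters and is not a measured site. The capitals mark the matches of the ROR half-site, and the GATA match of Foxp3 is left in lower case.
Il17a: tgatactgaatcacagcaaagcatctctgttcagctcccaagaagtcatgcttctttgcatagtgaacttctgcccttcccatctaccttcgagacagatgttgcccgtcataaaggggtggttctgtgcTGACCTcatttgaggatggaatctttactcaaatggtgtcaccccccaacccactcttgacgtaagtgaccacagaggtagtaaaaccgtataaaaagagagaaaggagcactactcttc
Foxp3: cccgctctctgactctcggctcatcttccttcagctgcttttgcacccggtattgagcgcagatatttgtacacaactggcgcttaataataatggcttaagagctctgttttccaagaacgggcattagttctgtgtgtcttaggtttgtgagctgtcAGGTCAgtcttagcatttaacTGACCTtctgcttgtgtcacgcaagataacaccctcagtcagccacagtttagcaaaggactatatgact

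Model was set against Control to see which of the 9 genes differ in T cells of the ovalbumin model. Among T cells, 4 of the 9 genes were at least 1.5-fold higher in CPM in Model (Gata3, Rora, Il2ra and Il10), 1 was lower (Il17a, whose direction turns in thinned cells, at 1.08) and 4 were neither (Tbx21, Foxp3, Bcl6 and Ikzf2). Of all 11830 genes compared in T cells, 22.8% were higher by that fold and 13.0% lower. The median log2 ratio of the 9 genes was 0.55, against 0.12 for all genes. Between PD00 and Model 2 of the 9 genes were higher (Gata3 and Il10) and none lower, where 4.36% of all genes were higher and 5.16% lower. PD00 against Control gave the same count of 4 higher and 1 lower, for the genes named in Model against Control, where 23.9% of all genes were higher and 11.0% lower. These comparisons share libraries and are not independent of each other.

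Gata3 (ENSMUSG00000015619, chromosome 2, 9857078 to 9890034, - strand) showed the largest difference among the 6 transcription factors. A UMI of it was found in 14.1% of T cells in Control (interval 12.6 to 15.8), 41.6% in Model (39.9 to 43.4) and 52.4% in PD00 (50.4 to 54.4). Its level was 50.9, 229 and 354 CPM. The 3 intervals of the share do not overlap, with Control lowest and PD00 highest. With every cell of at least 1000 UMIs thinned to 1000, which removes differences in depth, the shares were 3.95%, 18.8% and 27.5%. Cells under 1000 UMIs, among them 7, 20 and 7 T cells, were left out of thinned values. The ratio was 4.50 (4.09 to 4.95) for Model against Control and 1.55 (1.49 to 1.61) for PD00 against Model. The first was 6.84 when T cells with genes of other cell types were left out. The second lies close to the fold used, and was 1.41 in those cells, 1.42 in thinned cells and 1.48 with median of ratios scaling, all under 1.5. B cells, which do not use GATA3 as a lineage factor, held a Gata3 UMI in 0.111%, 1.68% and 1.95%.

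Rora (ENSMUSG00000032238, chromosome 9, 68653786 to 69388246, + strand) encodes a nuclear receptor of the ROR family and was the most widely found of the 9 genes. It was detected in 39.4%, 74.4% and 77.9% of T cells in Control, Model and PD00, at 315, 704 and 923 CPM. Control was low, and Model and PD00 lay close together in share. Its ratio was 2.24 (2.15 to 2.33) for Model against Control and 1.31 (1.28 to 1.34) for PD00 against Model, and the latter stayed under the fold. Thinned, the shares were 18.2%, 45.5% and 51.2%. Macrophages, with medians of 13897, 8566 and 13411.5 UMIs, held a Rora UMI in 44.0%, 35.4% and 46.5%, but in 5.62%, 6.80% and 6.43% when thinned. The thinning left out 27, 222 and 124 macrophages with too few UMIs. B cells held a Rora UMI in 3.78%, 8.32% and 7.89%.

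Tbx21 (ENSMUSG00000001444, chromosome 11, 97098071 to 97115331, - strand), the type 1 factor, was rare in T cells, in 31, 88 and 49 of them (1.69%, 2.76% and 1.95%). Its level was 3.54, 5.17 and 3.92 CPM, and the interval of each ratio includes 1: 1.46 (0.982 to 2.23) for Model against Control and 0.758 (0.540 to 1.05) for PD00 against Model. The level of Tbx21 over all T cells therefore did not differ beyond counting error. In the shares, the intervals of Control (1.15 to 2.39) and Model (2.22 to 3.39) overlap only at their ends. The share was higher than in B cells, where it ranged from 0.111% to 0.252%. Among cells with Cd8a or Cd8b1 it was found in 2.23% (1.02 to 4.19), 8.06% (5.46 to 11.4) and 5.94% (3.11 to 10.1), with 10, 34 and 13 UMIs in all. There the intervals of Control and Model do not overlap, while the thinned shares were 0.990%, 1.68% and 1.98%.

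Foxp3 (ENSMUSG00000039521, chromosome X, 7573644 to 7595245, + strand) was found in 74, 159 and 119 T cells, which is 4.04% (3.18 to 5.04), 4.99% (4.26 to 5.80) and 4.72% (3.93 to 5.63). The 3 intervals overlap. Its level was 21.0, 17.9 and 22.3 CPM, and the ratio for Model against Control was 0.854 (0.717 to 1.02), or 1.12 without T cells that hold genes of other cell types, so no direction is given. T cells held 90.7%, 84.8% and 86.2% of all Foxp3 UMIs of their library, and at most 0.977% of B cells, neutrophils or macrophages held one. Within the T cells in which Cd4 was detected the level was lower in Model (29.5 CPM) and PD00 (25.7) than in Control (47.9), with a ratio of 0.615 (0.485 to 0.784) for Model against Control. The share there was 7.86%, 7.01% and 4.69%, and the intervals of Control and Model overlap. The Cd4-detected cells themselves were 22.9%, 36.3% and 41.4% of T cells, and 45.9%, 45.3% and 49.6% of Foxp3 cells had none of the subset genes (Cd8a, Cd8b1, Trdc, Cd4) detected.

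Bcl6 (ENSMUSG00000022508, chromosome 16, 23965052 to 23988852, - strand) was found in 3.00%, 5.36% and 5.32% of T cells, at 6.86, 9.42 and 10.2 CPM. These shares were below those in B cells (5.56%, 6.30% and 6.35%), neutrophils (7.22%, 10.3% and 13.1%) and macrophages (11.8%, 7.31% and 6.81%), whose depth differs. Thinned, the share of T cells was 1.21%, 0.884% and 1.15%. It was then below neutrophils (3.75%, 5.08% and 5.75%) in each library. Thinned B cells (1.34%, 1.52% and 1.03%) and macrophages (1.03%, 1.03% and 0.585%) were not above T cells throughout. T cells held only 7.61%, 24.5% and 20.8% of the Bcl6 UMIs. No difference in T cells was read from it: its ratio for Model against Control was 1.37 (1.03 to 1.85), 2.08 without T cells that hold genes of other cell types and 0.733 in thinned cells.

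Ikzf2 (ENSMUSG00000025997, chromosome 1, 69531214 to 69687245, - strand), which encodes Helios, a zinc finger factor frequent in regulatory T cells, was found in 14.8%, 21.2% and 19.6% of T cells. Its level was 95.2, 105 and 112 CPM, with ratios of 1.11 (1.02 to 1.20) for Model against Control and 1.06 (0.993 to 1.13) for PD00 against Model. Without T cells that hold genes of other cell types the first was 1.55, just past the fold. Il2ra (ENSMUSG00000026770, chromosome 2, 11642807 to 11693193, + strand), the alpha chain of the IL-2 receptor, was found in 8.73%, 16.7% and 18.6%, at 31.8, 48.7 and 67.1 CPM. Control was below both other libraries. The ratio for Model against Control was 1.53 (1.34 to 1.75), which fell short of the fold at 1.41 with median of ratios scaling, 1.36 with T cells taken from 1 CD3 UMI and 1.28 with a total that leaves out mitochondrial, ribosomal protein and haemoglobin genes. That total moved the median log2 ratio of all genes from 0.12 to -0.13. For PD00 against Model the ratio was 1.38 (1.26 to 1.51).

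Il10 (ENSMUSG00000016529, chromosome 1, 131019845 to 131024974, + strand), an anti-inflammatory cytokine, had the largest ratio of the 9 genes. It was found in 18 T cells of Control (0.983%, interval 0.583 to 1.55), 191 of Model (5.99%, 5.19 to 6.87) and 171 of PD00 (6.79%, 5.84 to 7.84). The shares of Model and PD00 overlap within their intervals, and both lie above Control. The level was 4.07, 33.6 and 57.0 CPM, from 38, 703 and 830 UMIs, and a cell that held it had 2.11, 3.68 and 4.85 UMIs on average. The ratio was 8.26 (5.96 to 11.8) for Model against Control, 13.3 without T cells that hold genes of other cell types and 16.2 in thinned cells. For PD00 against Model it was 1.70 (1.53 to 1.88). B cells held an Il10 UMI in 0.556%, 3.61% and 7.07%, macrophages in 2.23%, 5.27% and 6.81%, and the natural killer gate in 0 of 248, 0 of 100 and 1 of 35 cells. With all UMIs the share in PD00 T cells was thus not above that in B cells and macrophages, whose median depth was greater (7281.5 and 13411.5 UMIs). Thinned, it was 3.14% of PD00 T cells, against 0.827% of B cells and 1.08% of macrophages. In Control the thinned share was 0.219% of T cells and 0.437% of macrophages. The level in PD00 was higher in T cells (57.0 CPM, against 11.1 in B cells and 9.14 in macrophages).

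Il17a (ENSMUSG00000025929, chromosome 1, 20730905 to 20734496, + strand), a cytokine that acts on epithelium and recruits neutrophils, was almost confined to T cells, which held 98.0%, 94.0% and 93.6% of its UMIs. It was found in 109, 254 and 147 T cells (5.95%, 7.97% and 5.84%), at 79.3, 50.1 and 40.5 CPM. The share was highest in Model while the level was highest in Control, where a cell that held it had 6.79 UMIs against 4.12 in Model and 4.01 in PD00. The ratio for Model against Control was 0.632 (0.574 to 0.695), but 0.762 without T cells that hold genes of other cell types and 1.08 (0.847 to 1.38) in thinned cells, so no direction over all T cells is given. For PD00 against Model it was 0.808 (0.729 to 0.895). The cell with the most Il17a UMIs held 5.68%, 8.69% and 12.2% of them.

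**Figure D1:**
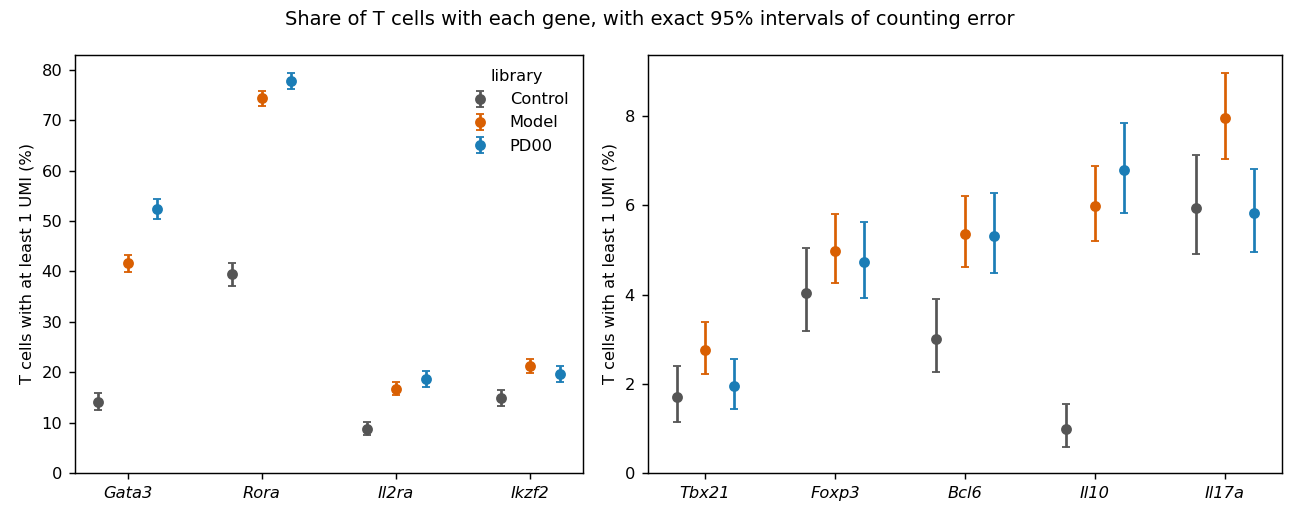
Share of T cells with at least 1 UMI of each gene (vertical axis, percent) in Control, Model and PD00; points are the 3 libraries and bars exact 95% intervals of counting error. Gata3 stands at 14.1%, 41.6% and 52.4% and Il10 at 0.983%, 5.99% and 6.79%, while the bars of Foxp3 overlap.

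**Figure D2:**
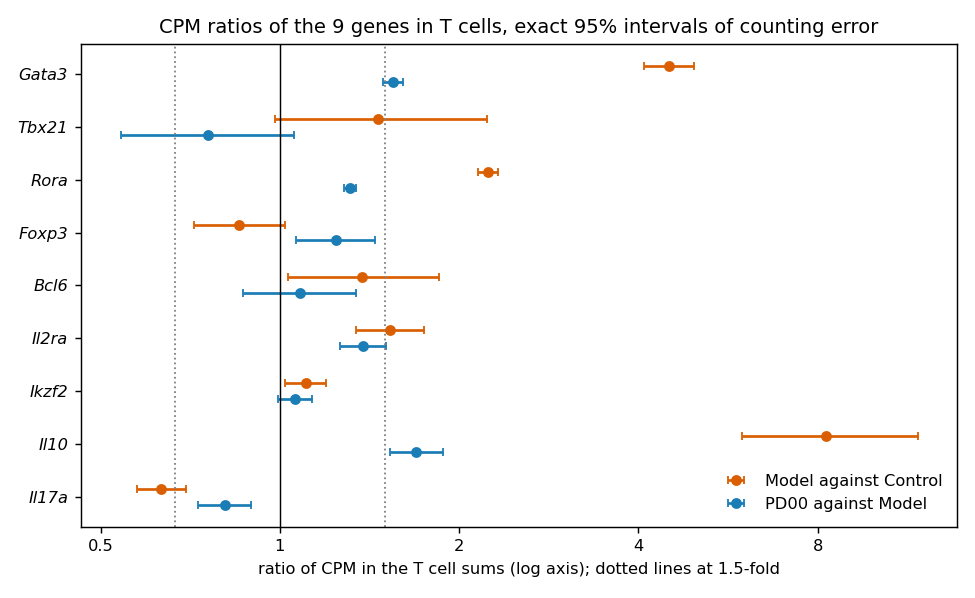
Ratio of CPM in T cells for Model against Control and for PD00 against Model (horizontal log axis), with exact 95% intervals of counting error and dotted lines at 1.5-fold either way. Gata3 (4.50) and Il10 (8.26) lie farthest to the right in Model against Control, and in PD00 against Model 2 genes lie past the line, Gata3 (1.55) and Il10 (1.70).

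The cytokines were found in different T cell subsets. T cells were divided by detected genes into cells with Cd8a or Cd8b1, then Trdc (gamma-delta-like, 128, 388 and 209 cells), then Cd4, and the rest, with none of these. Gamma-delta-like cells were 6.99%, 12.2% and 8.30% of T cells but held 53.2%, 45.7% and 42.2% of the Il17a cells. Within them Il17a was found in 45.3% (36.5 to 54.4), 29.9% (25.4 to 34.7) and 29.7% (23.6 to 36.4), and in 24.2%, 13.7% and 14.8% when thinned. Its level was 463 CPM in Control, 160 in Model and 173 in PD00, a ratio of 0.345 (0.300 to 0.398) for Model against Control and 1.08 (0.910 to 1.28) for PD00 against Model. Control was high in both share and level, and Model and PD00 did not differ beyond counting error. Among cells with Cd4 the level was 43.9, 54.2 and 43.5 CPM, and the interval of the ratio for Model against Control includes 1 (1.23, 0.987 to 1.56). A single cell held 23.5%, 23.6% and 27.8% of the Il17a UMIs of these Cd4 cells.

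Il10 was mostly in the other subsets. The Cd4 cells held 11 of the 18, 103 of the 191 and 97 of the 171 Il10 cells, at 12.1, 60.4 and 91.2 CPM, and most of the rest in Model and PD00 (70 and 64) were cells with none of the subset genes. Only 0, 9 and 7 gamma-delta-like cells held it, and 0 of 128 allows a share of up to 2.84% by the exact interval. Gata3 was higher in PD00 than in Model within gamma-delta-like cells as well, at 145 against 73.6 CPM (ratio 1.97, 1.59 to 2.43). In Cd4 cells that ratio was 1.24 (1.17 to 1.30). Among cells with none of the subset genes Gata3 stood at 307 against 166 CPM. With Cd8a or Cd8b1 detected it stood at 136 (117 to 157) against 121 (107 to 135) CPM, and the intervals overlap. In Cd4 cells 5 of the 8 genes with enough UMIs were at least 1.5-fold higher in Model than in Control and 1 lower (Foxp3), where 22.7% of all genes were higher and 11.0% lower. These 5 were Gata3 (7.44), Il10 (4.99), Il2ra (3.71), Rora (2.91) and Bcl6 (1.91), the last from 11 Control UMIs. The share of Cd4 cells with Bcl6 (2.38%, 4.67% and 5.56%) was no higher than that in B cells. Thinned, it was 0.718%, 0.867% and 1.25%, against 1.34%, 1.52% and 1.03% in B cells.

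**Figure D3:**
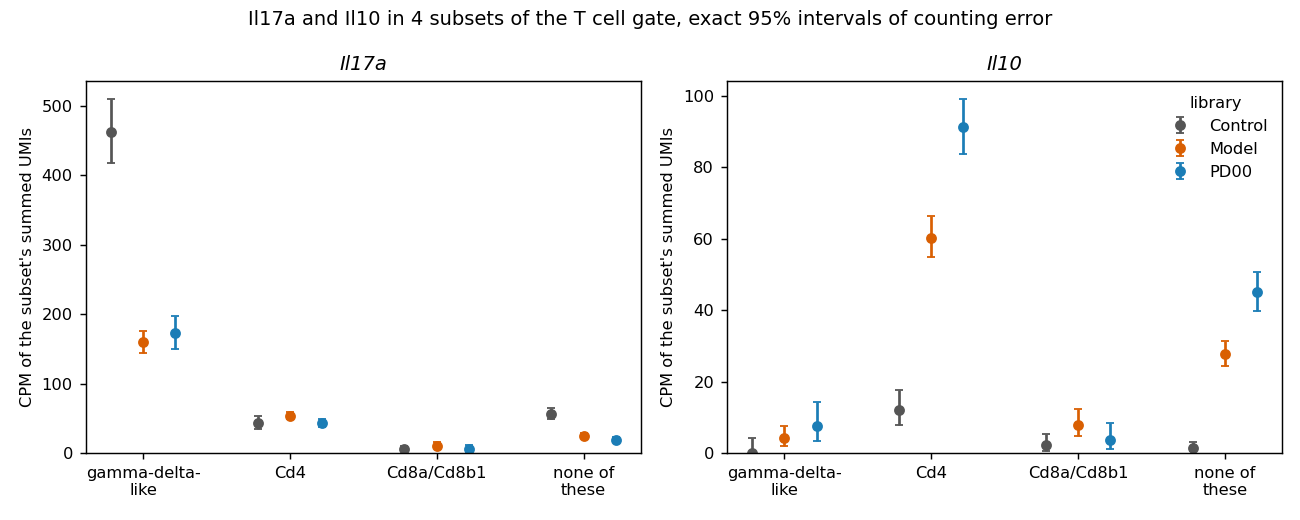
CPM of Il17a (left) and Il10 (right) in the summed UMIs of 4 subsets of T cells in each library, with exact 95% intervals of counting error. Il17a is highest in gamma-delta-like cells of Control (463) and Il10 in Cd4 cells of PD00 (91.2).

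Pairs of genes in the same T cell were counted for all 36 pairs. Cells with Foxp3 held Ikzf2 more often than cells without it. It was found in 61 of 74 Foxp3 cells of Control (82.4%), 119 of 159 of Model (74.8%) and 85 of 119 of PD00 (71.4%), against 12.0%, 18.4% and 17% of cells without Foxp3. Thinned, this was 43.2%, 49.1% and 52.9% against 4.34%, 6.25% and 6.06%. The share of Foxp3 cells with Ikzf2 did not differ between libraries beyond counting error. Il2ra was found in 24.3% (15.1 to 35.7) of Foxp3 cells in Control, 52.8% (44.8 to 60.8) in Model and 63.9% (54.6 to 72.5) in PD00, against 8.08%, 14.8% and 16.4% of cells without Foxp3. In thinned cells it was 1.35%, 18.2% and 26.1% with Foxp3 and 2.68%, 4.39% and 5.35% without, and the thinned value of Control rests on 1 cell of 74. The all-UMI interval of Control lies below both others, while those of Model and PD00 overlap. Median depth of the Foxp3 cells was similar, at 4540, 4630 and 4322 UMIs.

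Gata3 was found in 31, 85 and 68 of the Foxp3 cells (41.9%, 30.5 to 53.9; 53.5%, 45.4 to 61.4; and 57.1%, 47.7 to 66.2), against 13.0%, 41.0% and 52.2% of cells without Foxp3. Thinned, the shares were 8.11%, 15.1% and 21.0% with Foxp3 and 3.77%, 19.0% and 27.8% without. The order of the shares differs between all UMIs and thinned cells in Model and PD00, and no order is read from them there. Foxp3 and Il17a were together in 5, 3 and 0 cells, and 0 of 119 allows a share of up to 3.05% by the exact interval. Foxp3 and Tbx21 were together in 1, 3 and 1 cells. Of the lineage factors Gata3, Tbx21, Foxp3 and Bcl6, 2 were held together by 2.62%, 5.49% and 5.76% of T cells and 3 by 0.109%, 0.345% and 0.238%.

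**Figure D4:**
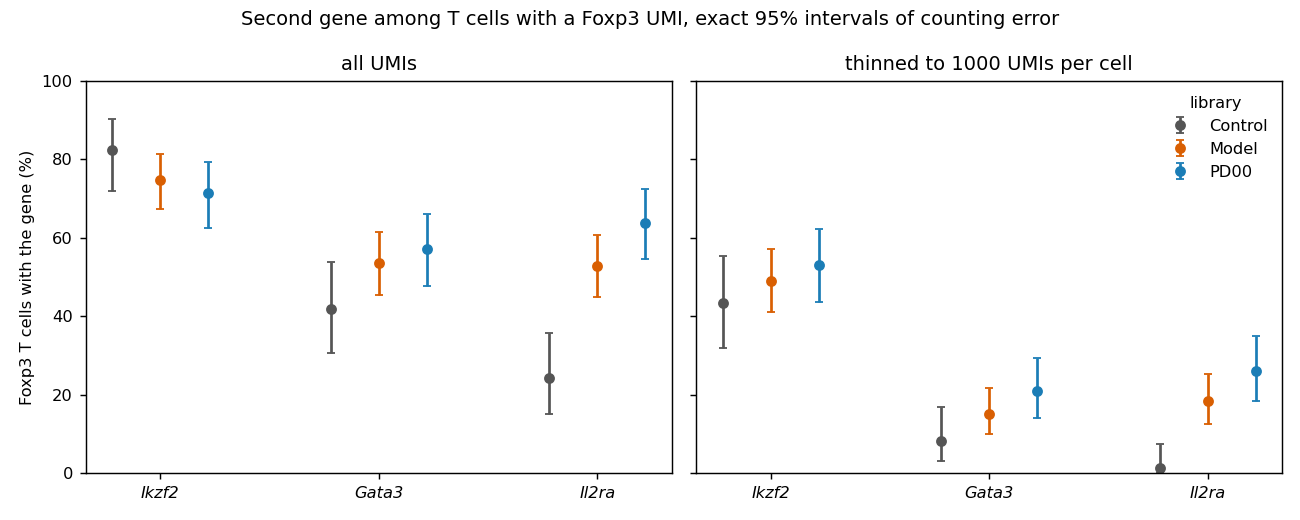
Share of T cells with a Foxp3 UMI (74 in Control, 159 in Model, 119 in PD00) that also held Ikzf2, Gata3 or Il2ra, from all UMIs (left) and with cells thinned to 1000 UMIs (right), with exact 95% intervals of counting error. Il2ra goes from 24.3% in Control to 52.8% and 63.9%, while the bars of Ikzf2 overlap.

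Cells with Gata3 and without Foxp3 were 228 of 1832 T cells in Control, 1242 of 3188 in Model and 1252 of 2519 in PD00. They were 1 of the 18 Il10 cells of Control, 99 of 191 in Model (51.8%) and 117 of 171 in PD00 (68.4%), and they held 65.1% and 81.6% of the Il10 UMIs in Model and PD00. Foxp3 cells were 6, 17 and 22 of the Il10 cells (33.3%, 8.90% and 12.9%). Cells with neither gene detected were 11, 75 and 32. At equal depth Gata3 was found in 26.8% of Il10 cells in Model against 18.3% of other T cells, and in 46.8% against 26.1% in PD00. Seen from the other side, Il10 was found in 10.7% of Foxp3 cells and 7.97% of cells with Gata3 alone in Model, and in 18.5% and 9.35% in PD00. The intervals of the Model pair overlap, and those of PD00 do not (12.0 to 26.6 and 7.79 to 11.1). Thinned, Il10 was found in 5.66% of Foxp3 cells and 4.31% of all Gata3 cells in Model. In PD00 it was 6.72% and 4.70%, and no order is read from these thinned shares. The Il10 cells of Model and PD00 also held Il1rl1, the IL-33 receptor, in 102 of 191 and 129 of 171, and the type 2 cytokine Il13 in 41 and 35. Of the 18 Il10 cells of Control 1 held Il1rl1 and 0 held Il13, where the exact interval reaches 18.5%. Over all T cells Il1rl1 was found in 4.15%, 24.6% and 33.7%, and Il13 in 0.273%, 7.21% and 7.70%.

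Il17a cells held Rora in 106 of 109 (97.2%), 250 of 254 (98.4%) and 145 of 147 (98.6%). Thinned, it was in 67.0%, 70.1% and 76.9% of Il17a cells against 15.1%, 43.4% and 49.6% of other T cells, a narrower gap in Model and PD00 than in Control. Il2ra was found in 45.9%, 33.9% and 27.9% of Il17a cells (16.5%, 9.45% and 11.6% thinned), against 6.38%, 15.2% and 18.0% of the other T cells (1.75%, 4.70% and 6.004% thinned). Gata3 was found in 26.6%, 35.4% and 42.2% of Il17a cells, against 13.3%, 42.2% and 53.0% of the others. Thinned, it was found in 3.67%, 13.8% and 15.6% of Il17a cells against 3.96%, 19.3% and 28.2% of the others.

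The genes most alike to each member were those whose thinned share differed most between T cells with and without it. They were ranked by the lowest such difference over the libraries with at least 30 such cells. The 9 members themselves were left out of this ranking. For Foxp3 the leading gene was Ctla4, an inhibitory receptor, in 52.7%, 56.6% and 61.3% of Foxp3 cells against 5.48%, 17.2% and 19.4% of the others. For Tbx21 they were the chemokine Ccl5, the granule gene Nkg7 and AW112010, with Ccl5 in 58.1%, 55.2% and 42.9% against 8.70%, 9.90% and 3.90%. For Il10, ranked over 2 libraries, they were Maf, Ctla4 and Il1rl1. Maf, a transcription factor, was in 52.6% and 61.4% of Il10 cells of Model and PD00 against 28.5% and 35.3% of the others. For Il17a they were S100a6, the costimulatory receptor Icos and Emb. Gata3, Rora, Foxp3, Il2ra and Ikzf2 shared S100a4 among their 3 genes, a calcium-binding protein gene, with lowest differences of 14.7 to 30.3 percentage points. For Bcl6 no gene exceeded 6.75 points.

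Other genes of these programs were read from 7 lists, as counts past 1.5-fold in T cells, beside the shares of all genes given above. Of the type 2 genes measured, 8 of 9 were higher in Model than in Control and none lower, with a median log2 ratio of 1.93 against 0.12 for all genes. Il13 was 35.2-fold (17.8 to 81.9), Il5 12.7-fold and Il1rl1 5.45-fold higher. T cells with Gata3 held 89.6% of the Il13 cells and 92.6% of the Il5 cells in Model. Of 10 measured in PD00 against Model, 3 were higher: Il1rl1 (1.72-fold), Il17rb (2.13-fold), which encodes an IL-25 receptor chain, and Ccr8 (2.18-fold). Of 7 type 1 genes, 3 were lower in Model than in Control, with ratios of 0.463 for Ifng, 0.412 for Il12rb2 and 0.565 for Stat4, and 2 were lower in PD00 than in Model, Ifng (0.564) and Eomes (0.589).

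Of 6 genes of the IL-17 program, 2 were higher in Model than in Control (Il1r1 2.23 and Ahr 1.73) and 1 lower (Il22, 0.631). In PD00 against Model 4 of the 6 were lower and none higher. These were Il22 (0.410, 0.284 to 0.582), Il1r1 (0.555), Il23r (0.636) and Il17f (0.641), a cytokine closely related to Il17a, whose own ratio of 0.808 stayed within the fold. Beside them, gamma-delta-like cells were 12.2% of T cells in Model and 8.30% in PD00, and the part of that difference was not tested. Of 10 regulatory T cell genes, 4 were higher in Model than in Control: Itgae (3.47), Ctla4 (2.03), Tnfrsf9 (1.94) and Tnfrsf4 (1.91), the last 3 of them receptors of T cell regulation. In PD00 against Model 1 of 11 was higher, Itgb8 (1.74, from 40 and 33 UMIs).

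Of 7 follicular helper genes, 4 were higher in Model than in Control (Il21, Pdcd1 5.67, Tox2 3.73 and Icos 1.69) and Cxcr5, the receptor that guides cells into follicles, was lower at 0.631 with an interval that includes 1 (0.383 to 1.05). Il21, a cytokine that acts on B cells, had 127 UMIs in Model and 0 in Control, which makes it at least 15.2-fold higher by the exact interval, and 18.9-fold higher with 3 counts set for the Control sum. In PD00 against Model Tox2 (1.83) and Il21 (1.84) were higher. Of the 6 regulators of Il10, 5 were higher in Model than in Control (Bhlhe40 3.89, Irf4 3.26, Nfil3 2.90, Maf 2.43 and Prdm1 1.57), and none was past the fold in PD00 against Model. Of the 5 genes of naive T cells, 4 were lower in Model than in Control (Klf2 0.245, Ccr7 0.268, Lef1 0.302 and S1pr1 0.418), and none was past the fold in PD00 against Model.

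Among CD3-negative innate lymphoid cells 5 of the 9 genes had enough UMIs for a ratio in each comparison. In Model against Control 2 were lower (Tbx21 and Ikzf2) and none higher, where 12.6% of all genes were higher and 15.3% lower. In PD00 against Model 1 was higher (Ikzf2), beside 6.89% of all genes higher and 6.11% lower. In PD00 against Control 2 were higher (Gata3 and Rora) and 1 lower (Tbx21), beside 16.7% and 17.2% of all genes. These sums mix 2 kinds of cell in different shares. The natural killer gate, with at least 2 UMIs of Ncr1, Klrb1c and Klre1, held 248, 100 and 35 cells. The innate lymphoid cell gate, with at least 2 UMIs of Il7r, Thy1 and Il1rl1, held 138, 172 and 208. A UMI of Trac was found in 5.80%, 13.4% and 15.4% of the latter, and of Il1rl1 in 71.0%, 48.3% and 54.8%. The receptor genes Trbc1 and Trbc2 were found more often there, in 56.5%, 41.9% and 40.9% and in 64.5%, 46.5% and 47.6%. Cd4 was found in 3.62%, 11.6% and 10.6% of that gate. How many of its cells were T cells without a CD3 UMI was not tested.

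Tbx21 did not follow the order of the sums within the natural killer gate. It was found there in 27.4% (21.97 to 33.4), 29.0% (20.4 to 38.9) and 31.4% (16.8 to 49.3), at 106, 98.9 and 115 CPM, while in the sum it was 63.1, 35.98 and 24.7 CPM. In that gate 3 of the 4 genes with enough UMIs were higher in PD00 than in Control (Gata3, Rora and Ikzf2) and none lower, where 16.7% of all genes were higher and 18.3% lower. These rest on 13, 68 and 16 UMIs from the 35 PD00 cells. The PD00 cell with the most UMIs of each gene held 30.8%, 30.9% and 43.8% of them. The ratios without such cells were not tested. Gata3 was found in 70.3%, 52.9% and 56.7% of the innate lymphoid cell gate, at 489, 435 and 477 CPM. Its ratio for PD00 against Control, 1.80 (1.56 to 2.08) in the sum, was 0.975 (0.840 to 1.13) in that gate alone. Rora was found in 77.5%, 64.5% and 75.0%, at 1062, 1027 and 1209 CPM. In that gate Gata3 and Rora were found together in 89 of 97, 77 of 91 and 109 of 118 Gata3 cells. Foxp3 was in 0, 2 and 3 cells of the gate, Il10 in 1, 5 and 5, and Il17a in 2, 6 and 1.

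Il2ra in the innate lymphoid cell gate was lower in Model and PD00 than in Control, the opposite of its direction in T cells. It was found in 53.6% (44.9 to 62.1), 30.2% (23.5 to 37.7) and 28.8% (22.8 to 35.5), at 254, 121 and 127 CPM, with ratios of 0.477 (0.366 to 0.619) and 0.499 (0.389 to 0.638) against Control. The share of the gate with Il1rl1, given above, was lower in Model and PD00 as well. In cells of the gate with an Il1rl1 UMI, a choice made after seeing the data, Il2ra was found in 61.2%, 47.0% and 43.0%, and the ratios were 0.919 (0.680 to 1.24) and 0.860 (0.652 to 1.13), whose intervals include 1. In the same cells the ratios for Model against Control were 1.54 for Gata3 and 1.63 for Rora, both past the fold. Ikzf2 was found in 36.2%, 19.2% and 21.6% of the gate, at 127, 52.4 and 90.7 CPM, a ratio of 0.412 (0.275 to 0.608) for Model against Control, and 0.888 in cells with Il1rl1. In this gate 2 of the 4 genes with enough UMIs were lower in Model than in Control and none higher, where 20.1% of all genes were higher and 17.8% lower. In PD00 against Control 1 was lower (Il2ra) and none higher, beside 15.4% of all genes lower and 24.5% higher.

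**Figure D5:**
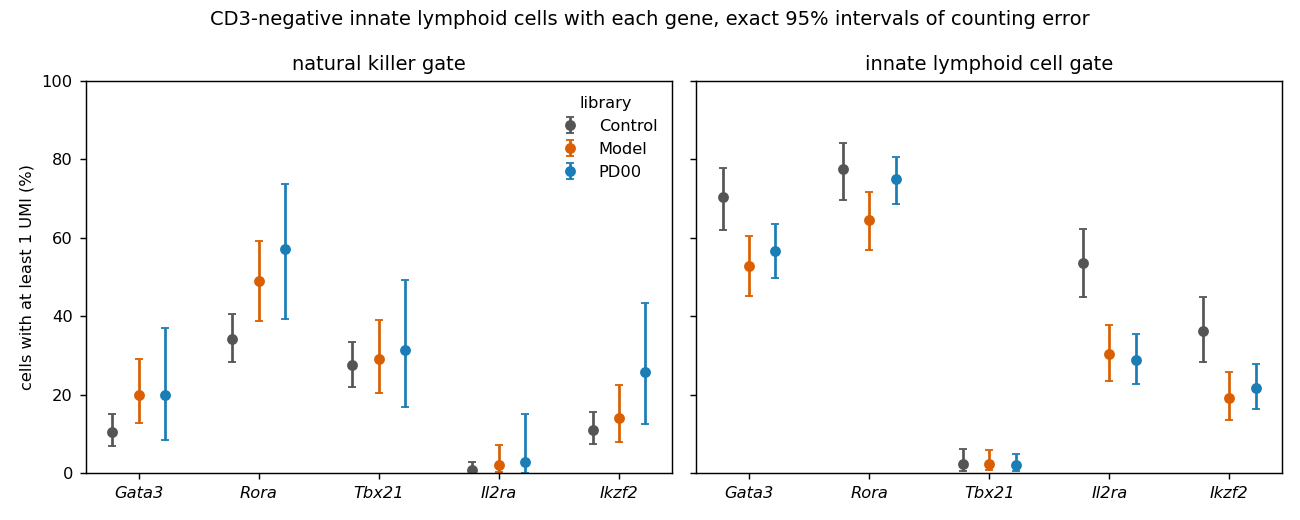
Share of cells with at least 1 UMI (vertical axis, percent) in the natural killer gate (248, 100 and 35 cells) and the innate lymphoid cell gate (138, 172 and 208 cells) for 5 of the genes; bars are exact 95% intervals of counting error. Tbx21 lies between 27.4% and 31.4% in all 3 libraries of the natural killer gate, and Il2ra is at 53.6% in Control and 30.2% and 28.8% in Model and PD00 of the other gate.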

How the data were processed

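The deposited files hold raw counts, which the authors made as UMIs per gene and cell barcode with a 3' droplet kit, per the labels' protocols. The submitters' processing notes list Cell Ranger 3.1.0, STAR and mm10, and the file headers give cellranger 5.0.0. Kept were cells with at least 500 UMIs and 200 genes, at most 20% mitochondrial UMIs and a Scrublet score (scanpy 1.11.5) of at most 0.2, a limit set after seeing the scores, which removed 421, 252 and 274 cells. No correction for free RNA was made. UMIs were summed by gate and library and scaled to CPM. A ratio was compared where both sums together held 50 UMIs or more, with an exact (Clopper-Pearson) 95% interval from the conditional binomial. Past 1.5-fold counted as higher or lower, and a gene at 0 was given 3 counts. Shares have Clopper-Pearson intervals.

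The 9 genes, the gates and the 7 lists (54 genes) were chosen with earlier results of these data known. List genes that are not reported here were left out of the list counts. Named were the 9 genes, from each list up to 3 genes past 1.5-fold with the interval bound farthest from 1 and those needed to name a count of 5 or fewer, and the 3 genes most alike to each of the 9. The 9 genes themselves were left out of the likeness. So were antigen receptor, immunoglobulin, ribosomal protein, mitochondrial and haemoglobin genes, and gene models named Gm or Rik. Alternatives were CD3 minimums of 1 and 3, T cells with genes of other cell types left out, doublets kept, a 10% mitochondrial limit, at least 500 genes, 2 other scalings, minimums of 1 and 200 UMIs, thinning to 1000 UMIs, and narrower innate gates. The gates by Il1rl1 and by Trac alone, leaving out the cell with the most UMIs, and subset and pair shares under other settings were added after seeing the data. The ratio code was tested on simulated data. Gene positions are from GENCODE M21 on GRCm38.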

Additional observations from a re-analysis of the deposited data

Results flagged for a closer look

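The ratio of Il2ra against Control pointed in opposite directions in T cells and in the innate lymphoid cell gate. For Model against Control it was 1.53 in T cells and 0.477 in the gate. For PD00 against Control it was 2.11 in T cells and 0.499 in the gate. Each gate has 1 library per treatment, and the difference was not tested. Innate lymphoid gate cells with an Il1rl1 UMI had ratios of 0.919 (0.680 to 1.24) for Model and 0.860 (0.652 to 1.13) for PD00. Both intervals include 1, and that choice of cells was made after seeing the data. The T cell ratio of 1.53 fell short of the fold under some alternatives, given above.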

How the results depend on the processing

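No paired analysis was possible because each treatment had 1 library. Of the alternative CPM ratios of the members, 344 stayed within the interval of the main value, 104 moved beyond it and 2 changed direction after being past the fold. Those 2 were Il17a in T cells for Model against Control, at 1.08 in thinned cells, and Gata3 in CD3-negative cells for PD00 against Control, at 0.975 in the innate lymphoid cell gate alone. A similar count did not always mean the same members in T cells. For Model against Control, Il17a was no longer past the fold without T cells holding genes of other cell types, while Ikzf2 and Bcl6 were. Under the alternatives run, the count of members past 1.5-fold in T cells was within 1.5 times the main one in both comparisons against Control. For PD00 against Model it was 1 in place of 2 with a CD3 minimum of 1 or 3, without T cells holding genes of other cell types, with median of ratios scaling and in thinned cells, where Gata3 fell under the fold. In CD3-negative cells the count for Model against Control was 2, and 1 without cells holding Trac, Trbc1 or Trbc2, 5 with a minimum of 1 UMI and 0 with a minimum of 200. For PD00 against Model it was 1, and 2 without those cells, 2 with median of ratios scaling, 2 in thinned cells, 3 with a minimum of 1 UMI and 0 with a minimum of 200. For PD00 against Control it was 3, and 1 without those cells, 1 in the innate lymphoid cell gate alone and 7 with a minimum of 1 UMI. The minimums change how many genes are compared. Apart from that the cause was not tested. Few cells stand behind some values: Il10 in Control rests on 18 T cells, Tbx21 in Control on 31, and the natural killer gate of PD00 has 35 cells.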
